A study of Mus musculus with 18 samples.

Results

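The 8 genes described here were chosen because their array signal appeared to part the tumours by mouse rather than by tumour grade. They are Hbb-b2, Ang3, Dglucy, Ctr9, Ttc5, Fam160b1, Scara3 and Map3k20, 8 of the 12393 genes that had a probe set of their own on the array. They had 14 such probe sets in all, of 20380 with a single gene symbol. Since the genes were selected on the log2 signals of these same 18 tumours by mouse, their levels are given as a description with no test. Each gene is described by a lead probe set, the one with the clearest parting of mice or, where none parted them widely, the widest range of signal. The lead probe sets are 1421791_at of Ang3, 1422679_s_at of Ctr9, 1424226_at of Dglucy, 1423876_at of Fam160b1, 1427865_at of Hbb-b2, 1418943_at of Map3k20, 1427020_at of Scara3 and 1424508_at of Ttc5. Signals are log2 values, so that a difference of 1 is a doubling.

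The data are 18 lung tumours microdissected from 6 mice of the mixed strain C57/B6-129SvJae, aged 10 weeks, each on 1 array. The 6 treated grade 3 tumours all came from the female mouse 8688. Of the 4 treated grade 2 tumours, 3 came from mouse 8688 and 1, 8639T4, from the male mouse 8639. The 4 untreated grade 3 tumours came from the males 8565 (1 tumour), 8584 (1) and 8629 (2). The 4 untreated grade 2 tumours came from the males 8565 (2) and 8700 (2). Treated mice had 2 intraperitoneal injections of tamoxifen, which restored p53 in their tumours per the labels, and tumours were taken on day 7 after the first. Grade 3 tumours are labelled adenocarcinomas and grade 2 tumours adenomas; the labels give neither the driver of the tumours nor the allele that tamoxifen acts on. No mouse carried both treated and untreated tumours, and 9 of the 10 treated tumours came from 1 mouse. Treatment, mouse and the female sex therefore cannot be told apart, except through the tumour 8639T4 and through differences among the 4 untreated mice. Tumours of 1 mouse are not independent, so for treatment the number of mice, 2 treated and 4 untreated, limits precision more than the number of arrays.

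p53 is a transcription factor that arrests or removes damaged cells by switching on target genes, among them Cdkn1a, which encodes p21, a brake on the cell cycle. In mice of mixed background, each animal inherits its own combination of the parental alleles, and all tumours of an animal share it. The 8 genes belong to unlike families. Adult beta-globin is made by red cell precursors, angiogenin family members are secreted ribonucleases, and CTR9 is a scaffold subunit of the PAF1 complex that travels with RNA polymerase II. DGLUCY converts D-glutamate, MAP3K20 (also called ZAK) is a stress-activated kinase, and SCARA3 belongs to the class A scavenger receptors. TTC5 is a cofactor of p300 in the p53 stress response, and FAM160B1 belongs to a family of proteins that link cargo to dynein.

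Of 10 lung epithelial marker genes measured, 1 stayed below the median of its array in all tumours, and the other 9 did not. The arrays had medians of 6.05 to 6.18 and correlated at 0.974 or more with one another. The excess of 3' over 5' signal in 2 control transcripts, a sign of RNA or amplification quality, was 2.62 in 8688T3 and 1.85 in 8639T4, against 1.05 or less in the other 16 tumours. The tumour 8639T4, the only treated tumour from another mouse than 8688, is thus one of the 2 with an excess of 3' signal.

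The 8 genes fell into 3 patterns, and not all of them were on or off. Ang3 and Ctr9 were high in mouse 8688 alone, so the treated mouse 8639 lay with the untreated mice. Hbb-b2 and Fam160b1 were low in both treated mice. Dglucy, Map3k20, Scara3 and, less clearly, Ttc5 placed the untreated mouse 8700 with or near the treated mice. Mouse 8700 gave only grade 2 tumours, so its place cannot be told apart from grade, save through the grade 2 tumours of mouse 8565. An on-off split was taken as a widest gap of at least 1.5 between neighbouring tumours in order of signal, with no mouse on both sides and at least 2 tumours on each side. Hbb-b2, Ang3, Dglucy and Ctr9 met this description and the other 4 genes did not.

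**Figure D1:**
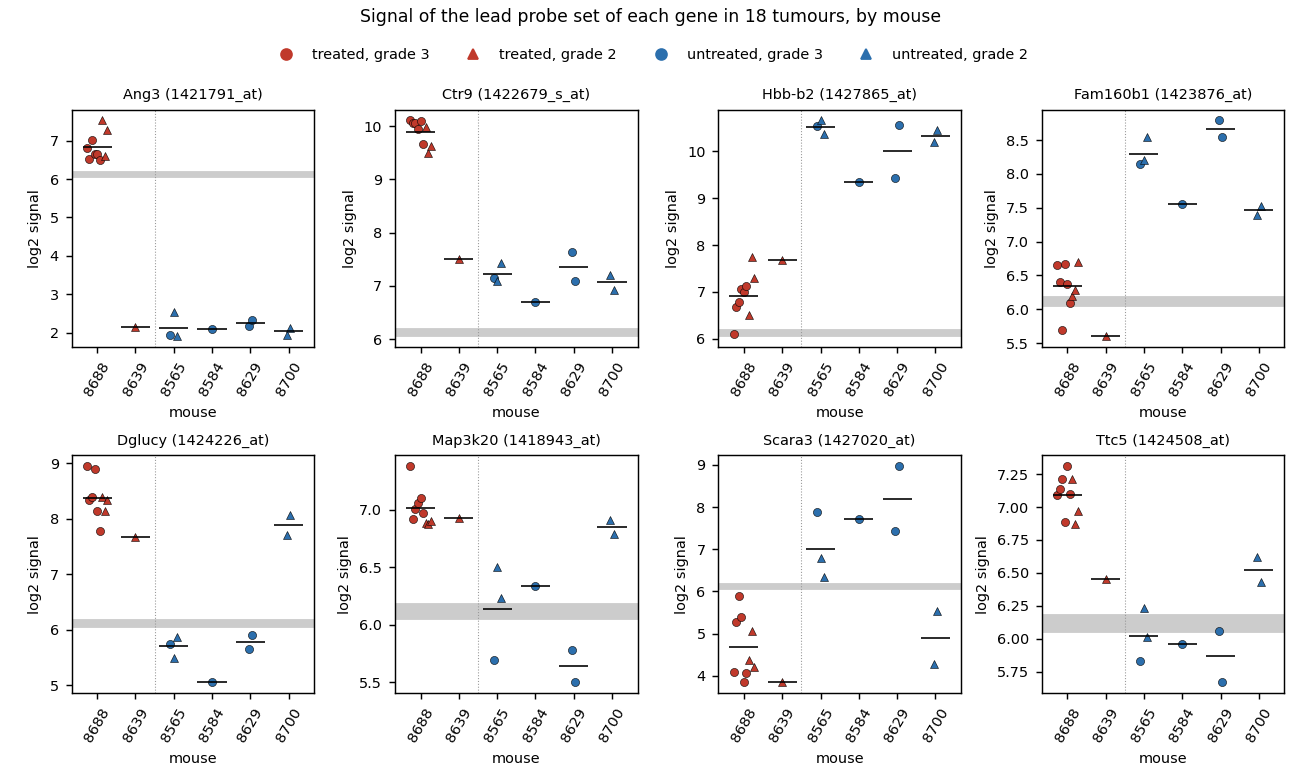
Log2 signal of the lead probe set of each gene (y axis) by mouse (x axis), 1 point per tumour, with treated mice left of the dotted line, bars at the mouse means and the range of array medians in grey. Ang3 and Ctr9 are high in mouse 8688 alone, Hbb-b2 and Fam160b1 are low in both treated mice, and in Dglucy, Map3k20 and Scara3 the untreated mouse 8700 lies with the treated mice.

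Ang3, a mouse ribonuclease of the angiogenin family, had the widest split of the 8 genes. In mouse 8688 its signal was 6.81, 6.53, 7.03, 6.66, 6.65 and 6.50 in the 6 grade 3 tumours and 7.53, 6.60 and 7.29 in the 3 grade 2 tumours. The treated tumour 8639T4 had 2.14, and the untreated tumours had 1.94, 2.53 and 1.90 in mouse 8565, 2.08 in mouse 8584, 2.16 and 2.32 in mouse 8629 and 1.93 and 2.13 in mouse 8700. All 9 tumours of 8688 were at 6.50 or more and the other 9 at 2.53 or less, a gap of 3.97, while tumours of a mouse spread with a pooled SD of 0.33. Treated grade 3 tumours had a mean of 6.70 ± 0.20 (SD, n = 6), untreated ones one of 2.13 ± 0.16 (SD, n = 4). For grade 2 the mean was 5.89 ± 2.53 (SD, n = 4) with treatment, 2.12 ± 0.29 (SD, n = 4) without. The large SD in treated grade 2 is the distance of 8639T4 from the 3 tumours of 8688. Outside 8688 every value was below the median of its array, so the size of the difference is not exact. Within mouse 8688, grade 3 tumours averaged 6.70 and grade 2 tumours 7.14.

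Ctr9 parted the same mice at a higher level. Its lead probe set read 10.11, 10.07, 10.06, 9.95, 10.10 and 9.66 in the 6 grade 3 tumours and 9.99, 9.50 and 9.62 in the 3 grade 2 tumours of mouse 8688. It read 7.50 in 8639T4, and 7.14, 7.10 and 7.42 in mouse 8565, 6.69 in mouse 8584, 7.63 and 7.09 in mouse 8629 and 7.21 and 6.93 in mouse 8700. The gap between 7.63 and 9.50 parted mouse 8688 from the 5 male mice, and 8639T4 lay within the untreated range of 6.69 to 7.63. The grade 3 mean was 9.99 ± 0.17 (SD, n = 6) with treatment, against 7.14 ± 0.38 (SD, n = 4) without. The grade 2 mean was 9.15 ± 1.12 (SD, n = 4) with treatment, against 7.17 ± 0.21 (SD, n = 4) without. The other 3 Ctr9 probe sets did not share the split: 1422680_at and 1448076_at never exceeded the median of an array, and 1422681_at did so on 1 array. Their differences between treated and untreated grade 3 tumours were 0.22, 0.04 and -0.07, against 2.85 for the lead probe set. Over the 18 tumours they correlated with it at 0.45, 0.39 and 0.08. The split of Ctr9 was thus seen in 1 of its 4 probe sets, and the dim signal of the others cannot show whether the transcript as a whole differed.

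Over the 18 tumours, the probe sets most like Ang3 were those of Xist, the non-coding RNA that silences an X chromosome in females, with Pearson's r of 0.984, 0.983 and 0.98. The first of these, with r = 0.985, and the second, with 0.978, were also most like Ctr9, followed by Ang3 at 0.976. Xist averaged 10.6 in the female mouse 8688 and 2.01 in 8639T4 on that probe set, and 2.30 to 3.05 in the untreated mice. These correlations rest on the contrast of 1 mouse with 5 and on 9 tumours that share that mouse.

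Hbb-b2, which encodes an adult beta-globin chain, was low in both treated mice. In mouse 8688 it had 6.09, 6.68, 6.78, 7.06, 6.99 and 7.12 in the 6 grade 3 tumours and 6.51, 7.75 and 7.29 in the 3 grade 2 tumours, and 8639T4 had 7.69. The untreated tumours had 10.54, 10.66 and 10.37 in mouse 8565, 9.35 in mouse 8584, 9.43 and 10.57 in mouse 8629 and 10.21 and 10.46 in mouse 8700. The treated tumours reached at most 7.75 and the untreated tumours began at 9.35, without overlap, and 8639T4 lay at the upper end of the treated values. Means in grade 3 were 6.79 ± 0.38 (SD, n = 6) for treated tumours, 9.97 ± 0.67 (SD, n = 4) for untreated ones. Means in grade 2 were 7.31 ± 0.57 (SD, n = 4) for treated tumours, 10.43 ± 0.19 (SD, n = 4) for untreated ones. The means of the 4 untreated mice spanned 1.17, and mouse 8688 lay 3.13 below their mean, 8.77-fold on a linear scale. The second Hbb-b2 probe set, 1427866_x_at, was dim, at 2.16 to 3.13, yet gave the same order, with 2.52 as the highest treated and 2.73 as the lowest untreated value.

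Other globin probe sets ran with Hbb-b2. A probe set annotated to 4 adult beta-globin genes together averaged 7.43 in 8688 and 8.24 in 8639T4, against 10.59 to 11.77 in the untreated mice. The clearest of 3 probe sets shared by the alpha-globin genes, which lie on chromosome 11 while the beta-globin cluster lies on chromosome 7, averaged 5.27 in 8688 and 6.05 in 8639T4, against 9.17 to 10.14 in the untreated mice. None of these 4 shared probe sets overlapped between treated and untreated tumours, and they correlated with Hbb-b2 at 0.98 to 0.99 over the 18 tumours. Alas2, which encodes the heme synthesis enzyme of red cell precursors, was the most like Hbb-b2 among probe sets with a single symbol of another gene (r = 0.944), with treated values of 2.62 to 3.18 and untreated values of 3.73 to 5.03, all below the array median. Next came a dim probe set of Kdm5d on the Y chromosome, at 0.923. A brighter Kdm5d probe set did not run so, with 2.15 in 8688 and 7.92 in 8639T4, against 6.44 to 7.90 in the untreated mice. Gbp2b, an interferon-induced GTPase gene, followed at 0.913. It did not part treated from untreated mice, averaging 2.65 in 8688, 2.86 in 8639T4 and 2.61 in the untreated mouse 8584.

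Not every red cell probe set ran with Hbb-b2. Hba-a2 is one of the alpha-globin genes of the shared probe sets, yet a probe set of Hba-a2 alone differed from them. It averaged 10.36 in 8688 and 9.99 in 8639T4, against 10.18 to 10.66 in the untreated mice. Its correlation with Hbb-b2 was 0.39, so the probe sets that cover Hba-a2 disagreed. Bpgm, which makes the red cell metabolite that lowers the oxygen affinity of hemoglobin, was 1 of 3 other erythroid genes bright enough to test. It ran partly with Hbb-b2, at r = 0.80, 0.81 and 0.71 on its probe sets. Treated tumours averaged lower on each, by -0.57, -0.58 and -0.61, with overlap between the groups. Its 2 brighter probe sets passed over the 6 mice (limma adjusted p = 0.00245 and 0.00254), and neither passed for treatment, with log2 differences of -0.54 (SE 0.15, limma adjusted p = 0.169) and -0.55 (SE 0.16, limma adjusted p = 0.169). Of 19 listed erythroid genes on the array, 15 never exceeded the median of an array, among them Slc4a1, Klf1, Gata1 and Hemgn. In bulk tumours, fewer cells of a type and less RNA per cell cannot be told apart, and the part of blood left in the tumours was not tested.

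**Figure D2:**
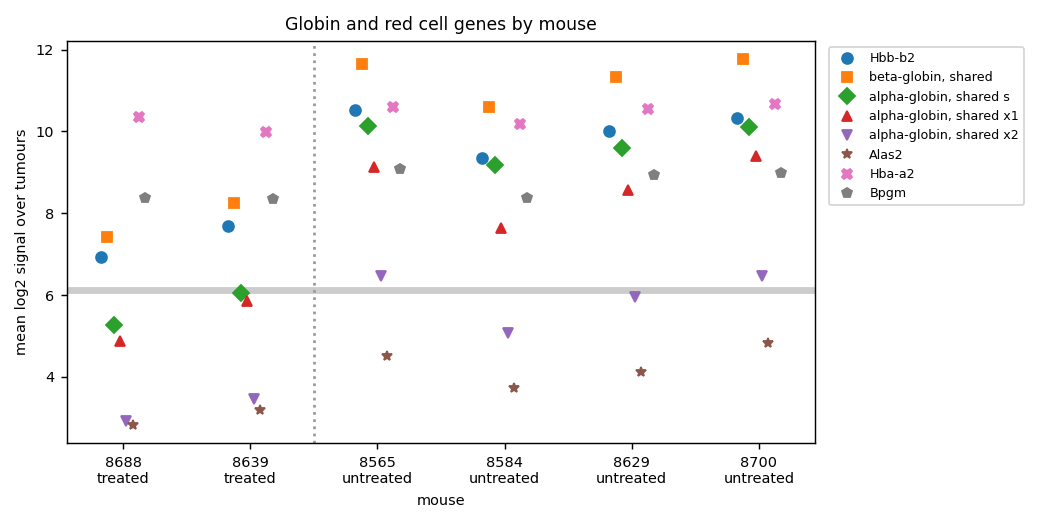
Mean log2 signal over the tumours of each mouse (y axis) for 8 globin and red cell probe sets, with the treated mice at the left, the 3 shared alpha-globin probe sets marked s, x1 and x2, and the range of array medians in grey. The beta-globin and shared alpha-globin probe sets and Alas2 are lower in both treated mice than in any untreated mouse. The probe set of Hba-a2 alone, a gene that the shared alpha-globin probe sets also cover, stays between 9.99 and 10.66.

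Fam160b1 was the other gene that parted treated from untreated tumours without overlap. Its lead probe set read 6.66, 6.41, 5.69, 6.67, 6.38 and 6.09 in the 6 grade 3 tumours and 6.19, 6.28 and 6.70 in the 3 grade 2 tumours of mouse 8688, and 5.60 in 8639T4, the lowest of all. This tumour and 8688T3, at 5.69, the 2 lowest, are those with an excess of 3' signal, whose part was not tested. The untreated tumours had 8.15, 8.20 and 8.54 in mouse 8565, 7.55 in mouse 8584, 8.79 and 8.55 in mouse 8629 and 7.40 and 7.52 in mouse 8700. The gap between 6.70 and 7.40 was 0.70, against a pooled SD of 0.29 within mice, so the levels are graded rather than on and off. The grade 3 mean was 6.32 ± 0.37 (SD, n = 6) with treatment, against 8.26 ± 0.54 (SD, n = 4) without. The grade 2 mean was 6.19 ± 0.45 (SD, n = 4) with treatment, against 7.92 ± 0.55 (SD, n = 4) without. The untreated mice differed among themselves too, with means of 8.67 in 8629 and 8.30 in 8565, against 7.55 in 8584 and 7.46 in 8700. The second probe set never exceeded an array median, ran with the lead at r = 0.89 and overlapped between the groups. The most similar probe sets were those of Kif20a (r = 0.949) and Ncapg (0.927), which encode a mitotic kinesin and a condensin subunit, and of Cdc20 (0.922), the activator of the anaphase-promoting complex.

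The promoter of Fam160b1 is shown because this gene, alone of those with a promoter in the table, parted treated from untreated tumours without overlap. It is taken from RefSeq's table for the mouse assembly GRCm38.p6, 250 bases before to 50 after the start. Capitals mark the GC box, GGGCGG read on either strand, with overlapping matches counted apiece.
Fam160b1, chr19:57360759-57361058, plus strand: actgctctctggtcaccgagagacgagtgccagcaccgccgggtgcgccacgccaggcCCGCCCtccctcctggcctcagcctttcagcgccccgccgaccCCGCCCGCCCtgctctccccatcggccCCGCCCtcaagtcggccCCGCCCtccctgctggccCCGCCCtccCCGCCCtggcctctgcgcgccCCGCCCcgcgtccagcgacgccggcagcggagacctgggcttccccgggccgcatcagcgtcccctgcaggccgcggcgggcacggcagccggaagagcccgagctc
This window held 8 GC boxes, and 35.7% of 32851 promoters of the same length held at least 1. The table held promoters of 4 of the 8 genes, 5 in all, and the windows of Dglucy, Map3k20 and Ttc5 held 0. A half-site of the p53 consensus was found in 0 of the 5 windows and in 8.36% of all, which says only that these letters are not in these windows. The sequence carried by each of the mixed-strain mice was not measured.

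Across all 20380 probe sets, 0.388% had treated and untreated tumours that did not overlap. Of the 14 probe sets of the 8 genes, 3 did so, the lead of Fam160b1 and both of Hbb-b2; the choice of the genes used these values, and nothing is read from the count. In grade 3 alone, 9 of the 14 probe sets, 8 of the 8 leads and 4.33% of all probe sets did not overlap. In grade 2, where mouse 8700 and the tumour 8639T4 enter, it was 4 of the 14, 3 of the 8 leads and 7.34% of all. The genes and their leads were both picked on these values, so nothing is read from these counts either.

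Dglucy placed an untreated mouse with the treated mice. Its signal was 8.95, 8.35, 8.40, 8.90, 8.15 and 7.78 in the 6 grade 3 tumours and 8.40, 8.14 and 8.34 in the 3 grade 2 tumours of mouse 8688 and 7.67 in 8639T4. The untreated tumours had 5.74, 5.50 and 5.87 in mouse 8565, 5.06 in mouse 8584, 5.65 and 5.91 in mouse 8629 and 7.72 and 8.07 in mouse 8700. The gap of 1.76, between 5.91 and 7.67, had mice 8688, 8639 and 8700 above it and mice 8565, 8584 and 8629 below it. Means in grade 3 were 8.42 ± 0.45 (SD, n = 6) for treated tumours, 5.59 ± 0.37 (SD, n = 4) for untreated ones. Means in grade 2 were 8.13 ± 0.33 (SD, n = 4) for treated tumours, 6.79 ± 1.29 (SD, n = 4) for untreated ones. The untreated mouse 8700 was thus 2.38 above the mean of the other 3 untreated mice, and both its tumours were higher than 8639T4. The lower mice lay below the array median, so that this size is not exact. Within mouse 8565, which carried both grades, the grade 3 tumour had 5.74 and the grade 2 tumours 5.50 and 5.87.

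The promoter of Dglucy, the on-off gene that placed the untreated mouse 8700 with the treated mice, is given from the same table and in the same way, and it holds no GC box.
Dglucy, chr12:100778807-100779106, plus strand: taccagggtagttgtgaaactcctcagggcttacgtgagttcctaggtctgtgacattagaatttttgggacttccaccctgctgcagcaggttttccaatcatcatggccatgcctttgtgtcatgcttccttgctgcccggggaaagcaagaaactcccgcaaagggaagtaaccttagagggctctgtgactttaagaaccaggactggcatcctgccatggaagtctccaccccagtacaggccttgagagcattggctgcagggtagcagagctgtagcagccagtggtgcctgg

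Map3k20 had the same mice at its upper end, in a narrower range. Its lead probe set read 7.38, 6.92, 7.01, 7.06, 7.10 and 6.97 in the 6 grade 3 tumours and 6.89, 6.88 and 6.90 in the 3 grade 2 tumours of mouse 8688, and 6.93 in 8639T4. The untreated tumours had 5.69, 6.50 and 6.23 in mouse 8565, 6.34 in mouse 8584, 5.78 and 5.50 in mouse 8629 and 6.91 and 6.79 in mouse 8700. The widest gap, 0.44, did not part whole mice, since tumours of 8565 lay on both sides of it. The grade 3 mean was 7.07 ± 0.16 (SD, n = 6) with treatment, against 5.83 ± 0.36 (SD, n = 4) without. The grade 2 mean was 6.90 ± 0.02 (SD, n = 4) with treatment, against 6.61 ± 0.31 (SD, n = 4) without. The second probe set never exceeded an array median, at 3.34 to 4.45, and correlated with the lead at 0.65.

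Scara3 ran the other way, low in mice 8688, 8639 and 8700. It had 4.10, 5.27, 5.90, 5.39, 3.85 and 4.07 in the 6 grade 3 tumours and 4.38, 5.06 and 4.20 in the 3 grade 2 tumours of mouse 8688, and 3.86 in 8639T4. The untreated tumours had 7.89, 6.80 and 6.34 in mouse 8565, 7.72 in mouse 8584, 7.43 and 8.97 in mouse 8629 and 4.27 and 5.54 in mouse 8700. Both tumours of 8700 lay within the range of 8688, and every tumour of 8565, 8584 and 8629 lay above it. Means in grade 3 were 4.76 ± 0.86 (SD, n = 6) for treated tumours, 8.0 ± 0.67 (SD, n = 4) for untreated ones. Means in grade 2 were 4.37 ± 0.50 (SD, n = 4) for treated tumours, 5.74 ± 1.11 (SD, n = 4) for untreated ones. The widest gap, 1.08, set apart only 1 tumour of 8629, at 8.97, and did not part whole mice. The pooled SD within mice was 0.79, the largest of the 8 lead probe sets, and tumours of 8688 alone lay between 3.85 and 5.90. The highest tumour of 8688, at 5.90, and the lowest of 8565, at 6.34, lay closer together than this SD. Within mouse 8565, the grade 3 tumour had 7.89 and the grade 2 tumours 6.80 and 6.34. All untreated grade 2 tumours lay at 6.80 or less and all untreated grade 3 tumours at 7.43 or more. Mouse 8700 gave only grade 2 tumours and mice 8584 and 8629 only grade 3 tumours. Mouse and grade were thus not told apart for this gene. Only 6 arrays were above the array median for this probe set, those of mice 8565, 8584 and 8629.

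Ttc5 was high in 8688 and intermediate in both 8639 and 8700. Its single probe set read 7.09, 7.14, 7.21, 6.89, 7.31 and 7.10 in the 6 grade 3 tumours and 7.21, 6.87 and 6.97 in the 3 grade 2 tumours of mouse 8688, and 6.45 in 8639T4. The untreated tumours had 5.83, 6.23 and 6.01 in mouse 8565, 5.96 in mouse 8584, 6.06 and 5.67 in mouse 8629 and 6.62 and 6.43 in mouse 8700. A gap of only 0.26 lay between 8688 and the rest, close to the pooled SD of 0.17 within mice, so Ttc5 was not on or off. The grade 3 mean was 7.12 ± 0.14 (SD, n = 6) with treatment, against 5.88 ± 0.17 (SD, n = 4) without. The grade 2 mean was 6.88 ± 0.32 (SD, n = 4) with treatment, against 6.32 ± 0.26 (SD, n = 4) without.

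**Figure D3:**
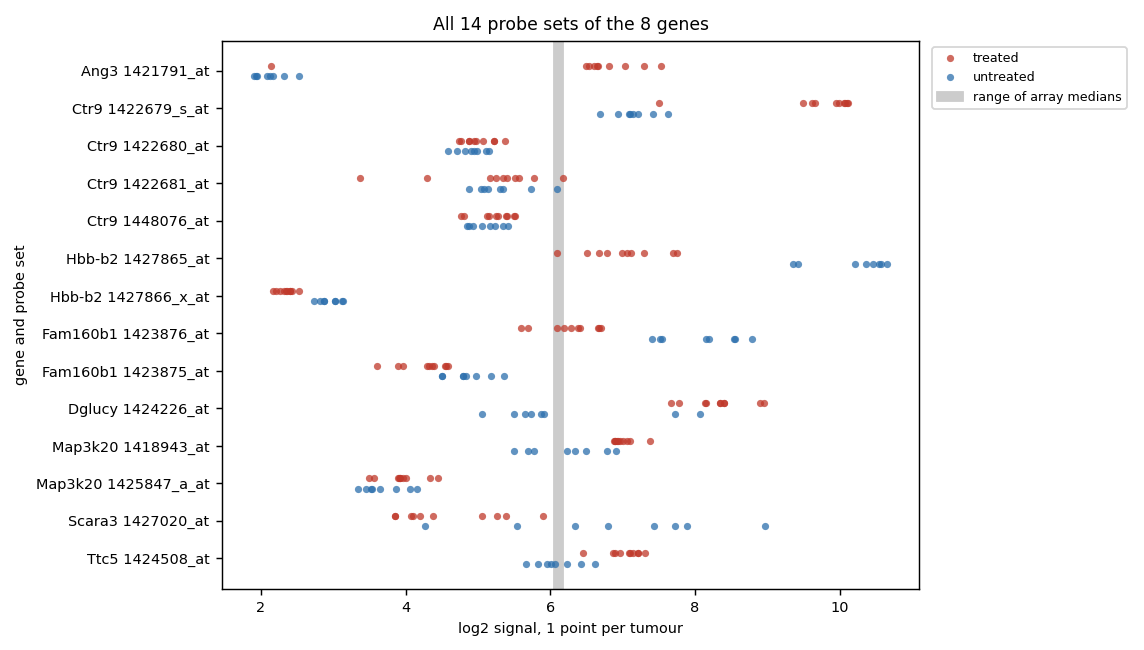
Log2 signal (x axis) of all 14 probe sets of the 8 genes (y axis), 1 point per tumour, treated in red above untreated in blue, with the range of array medians in grey. The lead probe set of Ctr9 stands apart from its 3 dim ones, and both Hbb-b2 probe sets and the lead of Fam160b1 have no overlap between treated and untreated tumours.

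The probe sets most like Dglucy over the 18 tumours were those of Psrc1 (r = 0.969), which encodes a spindle-associated protein, Ccng1 (0.958), which encodes cyclin G1, and Ddit4l (0.952), which encodes an inhibitor of mTOR signalling. Ccng1 averaged 8.87 in 8688 and 8.49 in 8639T4, against 8.30 in the untreated mouse 8700 and 6.62 to 6.81 in the other untreated mice. Cdkn1a, chosen after its values were seen, averaged 11.14 in 8688 and 11.06 in 8639T4, against 10.71 in 8700, 10.40 in 8584, 9.27 in 8629 and 8.97 in 8565. The untreated mouse 8700 was the nearest to the treated mice in Dglucy, Ccng1 and Cdkn1a. Mouse 8700 gave only grade 2 tumours, and the grade 2 tumours of the untreated mouse 8565 did not share its levels: Dglucy was 5.50 and 5.87 there, against 7.72 and 8.07 in 8700. Cdkn1a lay between 8.88 and 9.02 in the 3 tumours of 8565 and between 10.63 and 10.80 in the 2 of 8700. Within mouse 8688, Dglucy averaged 8.42 in grade 3 and 8.29 in grade 2 tumours.

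The likest probe sets for Map3k20 were those of Rab3c (0.923), a vesicle GTPase gene, Ephx1 (0.915), an epoxide hydrolase gene, and Scrn3 (0.911), which is also one of its nearest measured neighbours on chromosome 2. For Scara3 they were Tspan1 (0.936), a tetraspanin gene, Cfp (0.932), which encodes the complement factor properdin, and Cdc25c (0.929), a mitotic phosphatase gene. For Ttc5 they were Eif2s3x on the X chromosome (0.916), Hs3st3a1 (0.915), a heparan sulfate sulfotransferase gene, and Ociad1 (0.912). All these correlations are descriptions over 18 tumours that share mice.

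Among the 8 lead probe sets, Ang3 and Ctr9 correlated at 0.98, Map3k20 and Scara3 at -0.89, and Dglucy and Scara3 at -0.81. Pairs from different patterns also correlated strongly: Ctr9 and Hbb-b2 at -0.92, Ctr9 and Ttc5 at 0.91, Ang3 and Hbb-b2 at -0.90. Hbb-b2 and Fam160b1, which share a pattern, correlated at 0.85. The correlations thus do not set the patterns apart.

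Splits as wide as those of the 4 on-off genes were rare on the array. Of 20380 probe sets, 28 (0.137%), from 25 genes, met the description, and 4 of them belonged to the 8 genes, which the choice of the genes used. A further 6 probe sets were of Xist and the Y-linked genes Eif2s3y, Kdm5d and Uty, which matched the labelled sex. By width, Ang3 ranked 8th, Ctr9 22nd, Dglucy 24th and Hbb-b2 27th. Of the 28, 18 had untreated mice on both sides of the gap, which thus did not part all treated from all untreated mice. Some of the 18, Dglucy among them, had both treated mice on the same side. Treated and untreated mice were parted by 2 of them, those of Hbb-b2 and of Hal, a histidine breakdown enzyme gene.

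The widest splits outside the sex chromosomes were those of Trim12a, with a gap of 4.62, and Psca, with 4.59. Psrc1 had the same 3 mice above its gap as Dglucy. Trim12a and Trim34a, both of the TRIM family of antiviral ubiquitin ligases, were high in mice 8688, 8565 and 8700 and low in 8639, 8584 and 8629. Trim12a averaged 7.02 in 8688 and 1.84 in 8639T4, against 6.85 in 8565, 2.00 in 8584, 1.79 in 8629 and 7.02 in 8700.

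**Figure D4:**
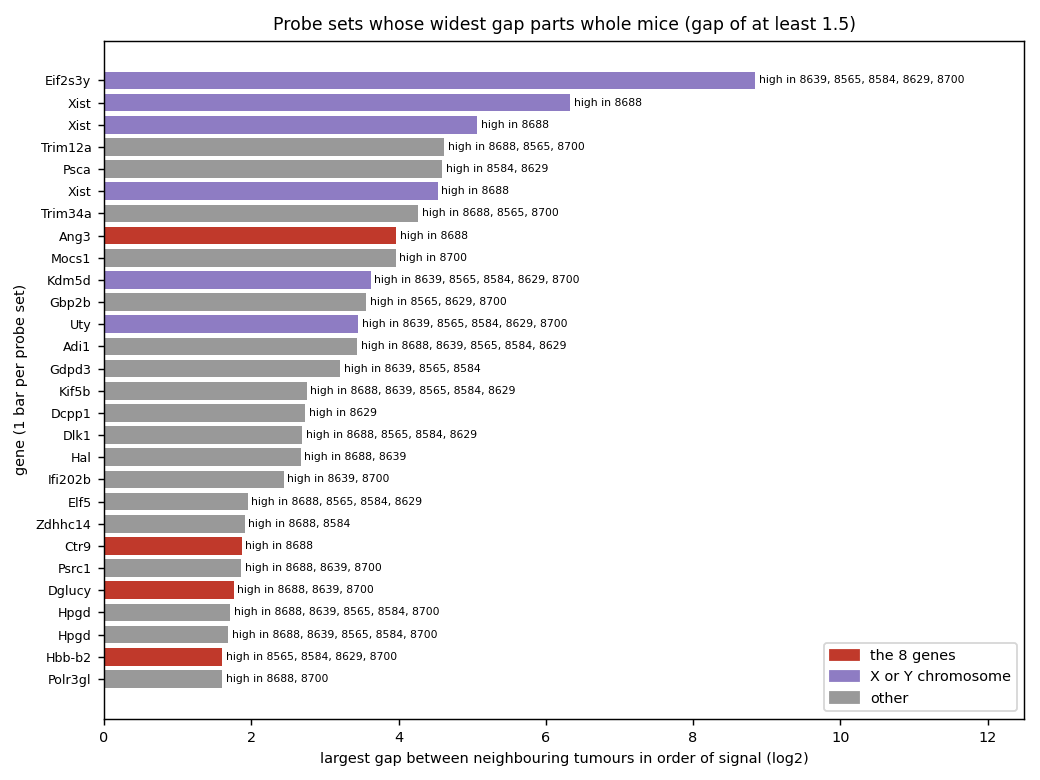
Width of the largest gap in log2 signal (x axis) for the 28 probe sets whose gap of at least 1.5 parts whole mice, 1 bar per probe set (y axis), with the mice above the gap named at the bar. The 4 bars of the 8 genes have gaps of 1.60 to 3.97, and most of the others part the untreated mice.

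Differences between mice were tested across all probe sets brighter than the median of at least 4 arrays, with grade as a covariate, to see whether genes next to the 8, or in their families, also differed. Over the 6 mice, 1786 of 10900 probe sets passed (16.4%, limma F test, adjusted p under 0.05). Among the 4 untreated mice, which share sex and treatment, 1244 passed (11.4%). That test took the spread within mice from all tumours, treated ones included, 9 of them from mouse 8688. With only the untreated tumours fitted, 83 passed, so the 11.4% depends on spread measured in treated tumours. For treatment, with the mouse as a random block, 64 passed (0.587%), 30 higher (0.275%) and 34 lower (0.312%) in treated tumours, and all 64 also passed over the 6 mice. Among the 64 were all 5 tested probe sets of the sex-linked genes Xist, Eif2s3y and Kdm5d. With sex as a covariate 2 passed, and on means per animal within grade 0 passed by limma, with 576 at an unadjusted p under 0.05. The untreated count rests on 1 tumour: without 8584T3 it was 272. The treatment count ranged between 7 and 294 when 1 tumour was left out, with the highest count without 8584T3.

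Neighbours were the 5 nearest genes with a tested probe set on each side. Ang3 has no entry in the gene table, and Hbb-b2 has one only off the main chromosome sequence, so that 6 of the 8 genes had neighbours. Of their 94 tested probe sets, 18 differed over the 6 mice (19.1%, against 16.4% of all) and 16 among untreated mice (17%, against 11.4%). None passed for treatment by limma, and 7 had an unadjusted p under 0.05. These shares are near the background, and without 8584T3 the first 2 counts were 7 and 2.

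By limma's F test over the 6 mice, the neighbours with the smallest p were Parva beside Ctr9 (adjusted p = 0.000136), Cacul1 beside Fam160b1 (adjusted p = 0.00141), Scrn3 beside Map3k20 (adjusted p = 0.00167), Pbk beside Scara3 (adjusted p = 0.0018), Tc2n beside Dglucy (adjusted p = 0.0355) and Ang beside Ttc5 (adjusted p = 0.0459). Parva, a focal adhesion gene, averaged 6.92 in 8688 and 6.86 in 8639T4, against 4.63 in 8584 and 6.35 to 6.87 in the other untreated mice. On its second, brighter probe set it averaged 11.13 in 8688 and 10.99 in 8639T4, against 10.98 to 11.19 in the untreated mice, and did not pass (limma adjusted p = 0.816). Cacul1 passed on 3 of its 4 probe sets. On the fourth, the brightest, it averaged 9.86 in 8688 and 9.95 in 8639T4, against 9.59 to 9.86 in the untreated mice. That probe set did not pass (limma adjusted p = 0.246). Pbk, a mitotic kinase gene, averaged 5.79 in 8688 and 4.62 in 8639T4, against 6.08 in 8584, 6.18 in 8700, 7.11 in 8629 and 7.19 in 8565. Scrn3 passed on all 3 of its probe sets, which ordered the mice differently. On the dimmest it averaged 6.07 in 8688 and 6.01 in 8639T4, against 5.88 in 8700 and 5.34 to 5.59 in the other untreated mice, and it did not pass among the untreated mice (limma adjusted p = 0.435). On the probe set with the smallest p, it averaged 8.49 in 8688 and 7.86 in 8639T4, against 6.54 in 8584 and 7.99 to 8.39 in the other untreated mice, and it passed among them (limma adjusted p = 0.00621). On the third, mouse 8700, at 7.59, was below 8584, at 7.65, so that 8700 was the highest untreated mouse, as for Map3k20, on 2 of the 3. Ang, which encodes angiogenin and lies among the neighbours of Ttc5, averaged 8.76 in 8688 and 8.40 in 8639T4, against 7.54 in 8584 and 8.64 to 8.94 in the other untreated mice.

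Around the beta-globin cluster, placed by Hbb-bt after the data were seen, 7 of 12 tested probe sets differed over the 6 mice (58.3%) and 5 among untreated mice (41.7%). The 3 genes with the smallest p were Trim12a (limma adjusted p = 6.36e-12), Trim34a (1.16e-10 on the clearer probe set) and Trim21 (0.000644). Trim6 and Trim30a also passed over the 6 mice, so most of the passing probe sets belong to TRIM genes near one another. None passed for treatment by limma, and 0 had an unadjusted p under 0.05. Trim12a did not order the mice as Hbb-b2 did. It was high in 8688 and low in 8639T4, and it was high in the untreated mice 8565 and 8700, where Hbb-b2 was high too. The shared alpha-globin probe sets parted the treated from the untreated mice as Hbb-b2 did. The parts of treatment and of inherited alleles in these levels were not tested.

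**Figure D5:**
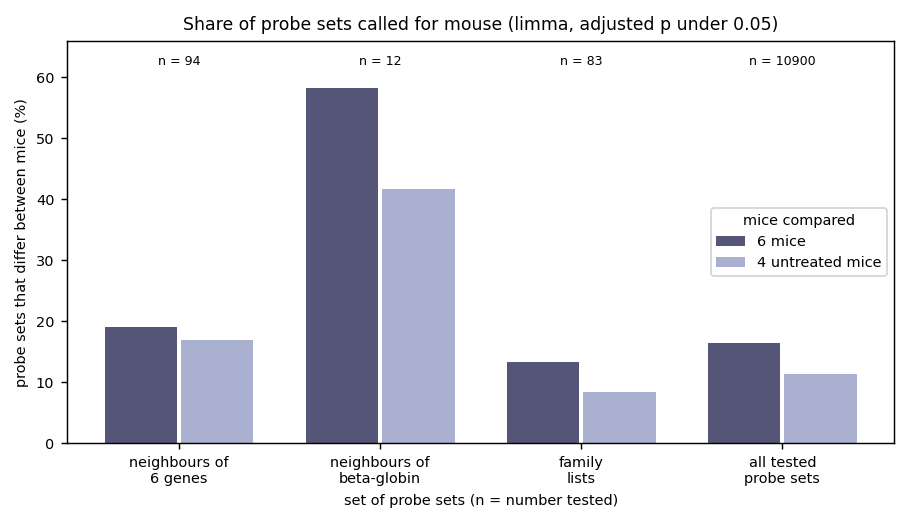
Share of tested probe sets (y axis, percent) that differ between mice by limma's F test, over the 6 mice (dark) and among the 4 untreated mice (light), for neighbours of 6 genes, neighbours of beta-globin, the family lists and all tested probe sets. Both tests take the spread within mice from all tumours, treated ones included. Neighbours of the 6 genes reach 19.1% and 17%, near the 16.4% and 11.4% of all. Those of beta-globin, a set placed after the data were seen, reach 58.3% and 41.7% of 12 probe sets, mostly of nearby TRIM genes.

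Genes of the families of the 8 differed between mice about as often as all genes tested. Without the 8 genes themselves, 11 of 83 tested probe sets of 8 lists passed over the 6 mice (13.3%, against 16.4%), and 7 among untreated mice (8.43%, against 11.4%). None passed for treatment by limma, 4 had an unadjusted p under 0.05, and the median log2 difference was 0.03, as over all probe sets. Of the PAF1 and elongation list, 9 of 15 genes were tested, with Ube2a (limma adjusted p = 9.66e-05) and Ube2b (0.00054), which encode the ubiquitin-conjugating partners of histone H2B ubiquitylation, the only ones to pass over the 6 mice. Each passed on 1 of 2 probe sets, and the probe sets of a gene disagreed. On the one that passed, Ube2a averaged 9.63 in 8688 and 9.74 in 8639T4, against 7.96 in 8584 and 9.54 to 9.59 in the other untreated mice. On the other, it averaged 9.35 in 8688 and 8.97 in 8639T4, against 9.90 in 8584 and 9.20 to 9.33 in the other untreated mice (limma adjusted p = 0.394). The second Ube2b probe set was likewise highest in 8584, at 10.76, and did not pass (limma adjusted p = 0.351). The PAF1 complex genes Paf1 (limma adjusted p = 0.318) and Cdc73 (0.22 and 0.234) did not pass.

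Of the angiogenin and RNase A list, 3 of 5 tested genes passed over the 6 mice. They were Ear3 (limma adjusted p = 0.000117) and Rnase2a (0.00397), which encode eosinophil-associated ribonucleases, and Ang, given above. Neither Ear3 nor Rnase2a was high in 8688 alone, as Ang3 was. Rnase2a averaged 5.01 in 8688 and 2.21 in 8639T4, against 2.51 to 8.73 in the untreated mice. Ear3 averaged 12.3 in 8688 and 10.36 in 8639T4, against 11.13 to 12.17 in the untreated mice. In the other lists Glul, the glutamine synthetase gene, Chek2, a checkpoint kinase gene, Map3k8 and the macrophage receptor gene Marco passed, Glul on 1 of its 2 tested probe sets, with limma adjusted p of 5.17e-05, 0.0039, 0.0174 and 0.0192. None of the 5 tested probe sets of the FHIP, FTS and Hook list passed by limma over the 6 mice, and 0 had an unadjusted p under 0.05.

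Markers of other cell types were read against the 16.4% of all tested probe sets that passed over the 6 mice. Of these markers, 6 of 14 fibroblast (42.9%), 3 of 9 endothelial (33.3%), 2 of 14 macrophage (14.3%), 2 of 2 neutrophil, 1 of 2 T and NK cell, 2 of 3 B and plasma cell and 0 of 13 lung epithelial probe sets passed by limma. Of the epithelial ones, 0 had an unadjusted p under 0.05. The log2 of the summed signal of 10 fibroblast markers was 13.8 to 14.29 in 8688 and 13.96 in 8639T4, against 13.84 to 14.74 in the untreated mice. The sum over 10 epithelial markers was 15.35 to 16.07 in 8688 and 15.89 in 8639T4, against 15.32 to 15.98 in the untreated mice. The ranges of the treated and untreated mice overlapped for both lists, and the part of cell composition in the levels of the 8 genes was not tested.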

How the data were processed

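Total RNA of 18 microdissected lung tumours was amplified from 100 ng, labelled with biotin and hybridised to 1 array per tumour (source: the labels). The deposited values are log2 signals per probe set, and the submitters' processing notes name GCRMA 2.20.0 and R 2.11.0. Scanner files were not used here. GCRMA subtracts a sequence-dependent background and normalizes between arrays, so dim probe sets are compressed and have no exact fold. Of 22690 probe sets, 20380 had 1 gene symbol in the platform annotation, 691 several, 1555 none and 64 were controls.

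Differences between mice (grade as covariate, all 6 mice or contrasts among the 4 untreated) and for treatment (group means, mouse as a random block, correlation 0.256) were fitted with limma 3.58.1 in R 4.3.3 over 10900 probe sets brighter than the median of 4 arrays or more, with Benjamini-Hochberg adjustment, and the code was tested on simulated data. Tumours of a mouse are not separate animals, so p-values between mice set the differences between these mice against the spread within mice. For the contrasts among untreated mice, that spread was taken from all tumours, treated ones included. The members and lists were chosen with earlier results of these data known. Named were the 8 genes with every probe set, the 3 likest probe sets of each lead, up to 3 passing neighbours per gene and up to 2 passing genes per list. Other filters, weights, fits and gaps were tried. The restored gene is not reported here.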

Additional observations from a re-analysis of the deposited data

Results flagged for a closer look

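In 5 of 56 groups of tumours examined, 1 tumour stood far from the others of its group by Dixon's criterion, where chance flags about 1 in 20 groups, or 2.8 here. The lead Ctr9 probe set read 9.66 in 8688T11, against 9.95 to 10.11 in the other treated grade 3 tumours. The dim Ctr9 probe set 1422681_at read 3.37 in 8688T3, against 5.17 to 6.17 in the other treated grade 3 tumours, and 4.30 in 8639T4, against 5.25 to 5.40 in the other treated grade 2 tumours. The dim Ctr9 probe set 1448076_at read 5.42 in 8565T3, against 4.85 to 4.93 in the other untreated grade 2 tumours. The dim Map3k20 probe set read 3.56 in 8639T4, against 3.90 to 3.96 in the other treated grade 2 tumours. The tumours 8688T3 and 8639T4 were also those with the largest 3' excess, 2.62 and 1.85, and its part in these values was not tested.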

How the results depend on the processing

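All 24 alternative gap values of the lead probe sets moved by less than the spread within mice. Of 52 other alternatives, 30 kept the count within 1.5 times. Counts were compared rather than shares, and some alternatives tested more or fewer probe sets. No paired analysis was possible because replicate numbers were given in accession order and tumour numbers only name the tumours of a mouse. Without a filter, 2997 of 20380 probe sets passed over the 6 mice (14.7%), 2031 among untreated mice (9.97%) and 101 for treatment (0.496%). These shares are a little below the 16.4%, 11.4% and 0.587% of the main setting. Also without a filter, 9 neighbours passed among untreated mice, and the family lists gave 18, 13 and 1 in the same tests. With array weights, whose estimation did not converge, the counts were 4721, 3323 and 2256. With 1 probe set per gene, 805 of 7300 passed among untreated mice, a share close to the 11.4% of the main setting. With only mice of at least 2 tumours, 941 passed over the mice and 272 among untreated ones, and with only the untreated tumours fitted, 83. For treatment, 509 passed with no mouse term, 2 with sex as a covariate, and by limma 0 on animal means (576 unadjusted). With 10 genes on each side, and so more probe sets tested, 36 and 31 neighbours passed in the 2 mouse tests. Without the 2 tumours with a 3' excess, chosen after seeing the data, 29 neighbours passed over the mice and 25 probe sets for treatment. A gap of 1 gave 55 splits.

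Leaving out 1 tumour gave 950 to 2417 probe sets over the 6 mice, 272 to 1835 among untreated mice and 7 to 294 for treatment. Neighbours gave 7 to 27, 2 to 21 and 0 to 3 in these tests, family lists 7 to 17, 2 to 12 and 0 to 3, and on-off splits 26 to 34. The counts of 950, 272 and 294 are those without 8584T3, the only tumour of its mouse, and the treatment count was 7 without 8565T4. The cause was not tested.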
